A study of Macaca mulatta with 20 samples.

Results

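HTR2B, F2RL1 and NGFR encode cell-surface receptors whose messenger RNA was followed in the corpus luteum of the rhesus macaque during simulated early pregnancy. HTR2B encodes a serotonin receptor, F2RL1 a receptor switched on by serine proteases, and NGFR the receptor shared by the neurotrophins. The genes were chosen because an earlier reading of these arrays found each of them lower under human chorionic gonadotropin (hCG) than in untreated tissue. All probe sets that the platform annotation assigns to 1 of these symbols alone were taken. They are 5 of the 52707 probe sets tested and stand for 3 of the 14132 named genes: HTR2B has 1 probe set, and F2RL1 and NGFR have 2 each. Their differences from the untreated group are therefore a description with no test. F2RL1 stayed low from hCG day 12 to hCG day 18, whereas HTR2B and NGFR were lowest on hCG day 10 and higher on the later days. For NGFR this course was seen in 1 of its 2 probe sets, the brighter.

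The corpus luteum is the ovarian gland that forms after ovulation and secretes progesterone, and hCG, which the early placenta makes, keeps it working by way of the receptor for luteinizing hormone. Signals were measured on 20 Affymetrix rhesus arrays in 5 groups of 4. Untreated corpora lutea of luteal day 10 were the baseline, and the other groups held corpora lutea of females injected with recombinant hCG into muscle from luteal day 9 on, 2 times a day. Treated corpora lutea were taken on luteal day 10 (hCG day count 1), 12 (3), 15 (6) and 18 (9), and the dose was raised in 9 steps between 15 and 2880 IU. The untreated group matches hCG day 10 alone in luteal day. After that, luteal day, duration of hCG and dose increased together and cannot be told apart. Since no label states that each corpus luteum is from its own animal, p-values here speak only of sample-to-sample spread, which may be technical.

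The 3 receptors work in different ways. The HTR2B protein couples to Gq, a G protein that activates phospholipase C and raises calcium in the cell, and its ligand serotonin is made from tryptophan by a hydroxylase. The F2RL1 protein, also called PAR2, carries its own ligand: trypsin-like proteases cut its outer end, and the new end then turns the receptor on. The NGFR protein, also called p75NTR, binds the neurotrophins, works beside the Trk receptors, sortilin or the Nogo receptor, and is also found outside the nervous system.

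The arrays carry RNA of the whole gland, so fewer cells of a type and less RNA per cell cannot be told apart. Of the luteal markers, STAR (cholesterol transport), HSD3B2 (progesterone synthesis) and INHA (an inhibin subunit) were measured, and their summed signal was 23351 to 39524 intensity units over the 20 arrays. Every array had been scaled to a common mean, and the median signal per array lay between 31.6 and 46.4. Among the brighter probe sets, correlations between arrays of a group were 0.927 to 0.970, and those between arrays of different groups 0.904 to 0.981. The arrays hCG day 12 replicate 1, hCG day 15 replicate 2 and untreated replicate 2 stood apart on the third principal component. Their signals of the matrix gene LUM were 558, 1657 and 602, against 7.53 to 152 in the other 17 arrays.

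HTR2B was lowest after 1 day of hCG and higher on the later days. Its probe set, MmuSTS.612.1.S1_at, had signals of 48.4, 55.3, 91.1 and 77.6 intensity units on hCG day 10, against 313, 411, 384 and 504 in untreated tissue. No hCG day 10 array came near the untreated ones: the brightest, at 91.1, was far below the dimmest untreated array, at 313.

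On hCG day 12 the HTR2B signals were 149, 98.5, 230 and 134, still all below the untreated arrays. On day 15 they were 268, 524, 136 and 271, and on day 18 they were 131, 362, 322 and 291. From day 15 on the HTR2B groups overlapped with the untreated group, and hCG day 15 replicate 2 exceeded every untreated array. The number of arrays under the lowest untreated one was 4, 4, 3 and 2 of 4 on hCG days 10, 12, 15 and 18.

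The group means of HTR2B were 403 ± 79.1 in untreated tissue and 68.1 ± 19.7, 153 ± 55.8, 300 ± 162 and 276 ± 101 on hCG days 10, 12, 15 and 18 (SD, n = 4 each). On the scale of log2(signal + 16), on which all log2 changes are given and which understates changes of dim probe sets, HTR2B differed from untreated tissue by -2.33 ± 0.34 on hCG day 10 (SE, 5.02-fold lower) and by -1.35 ± 0.34 on day 12 (2.55-fold lower). On days 15 and 18 the differences were -0.53 ± 0.34 and -0.59 ± 0.34. The day 15 difference was -0.82 without the 3 arrays that stand apart. When 1 array was left out at a time, the differences ran from -0.84 to -0.23 on day 15 and from -0.74 to -0.28 on day 18, so these late values depend on single arrays.

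The differences between hCG days hold no untreated array. They do rest on the hCG arrays whose low values led to the choice of the genes, so for the 3 receptors they too are a description, with no p-value. HTR2B on hCG day 18 differed from HTR2B on hCG day 10 by 1.74 ± 0.34 on the log2 scale (3.35-fold higher, 95% interval 1.04 to 2.45). All 4 day 18 arrays lay above all 4 day 10 arrays, as they did for 5.60% of all probe sets. Against day 10 the day 12 signals were also all higher (1.91% of all probe sets), by 0.98 ± 0.34. The later steps were 0.82 ± 0.34 for day 15 against day 12 and -0.05 ± 0.34 for day 18 against day 15, the last with an interval of -0.76 to 0.65 that covers changes of either sign.

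**Figure D1:**
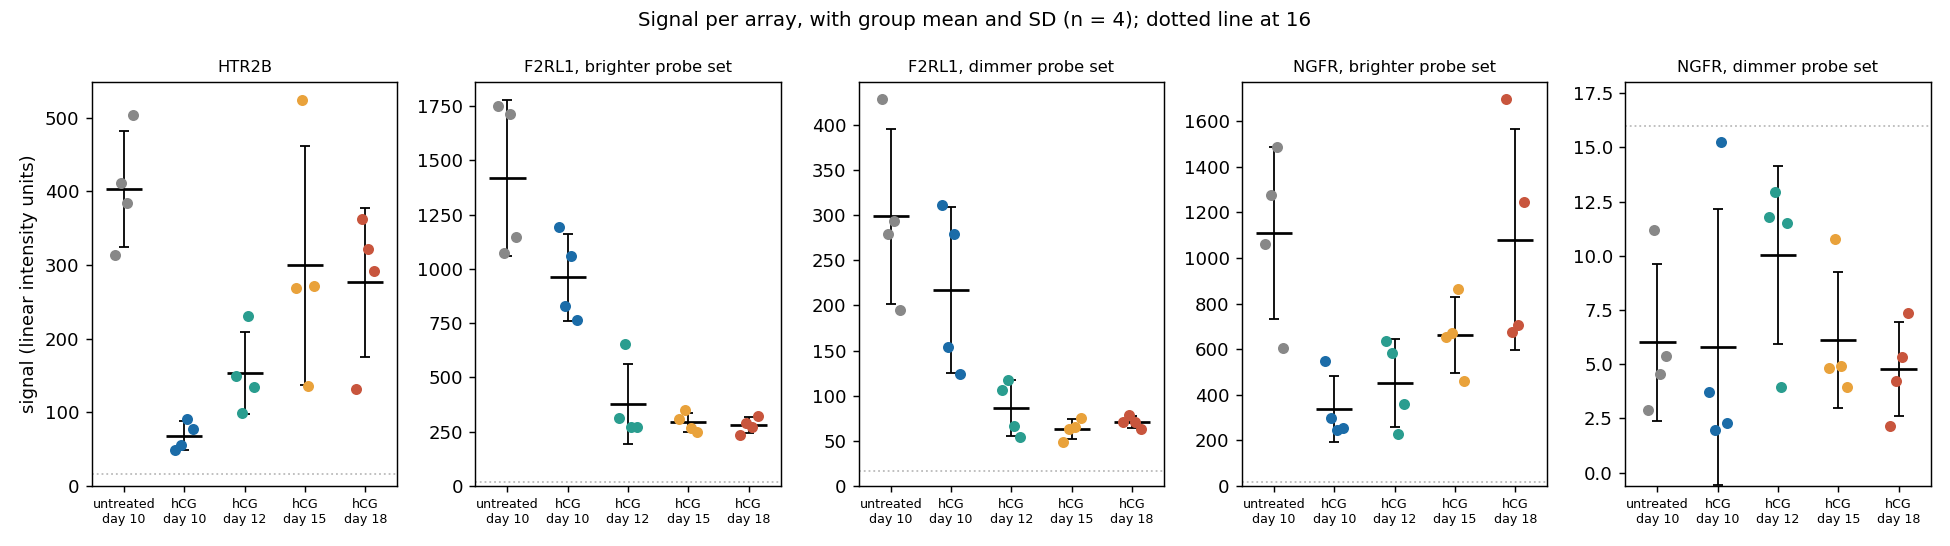
Signal (intensity units, linear axis) of the 5 probe sets of HTR2B, F2RL1 and NGFR on each of the 20 arrays, by group, with a point per array and the mean ± SD of 4 arrays. HTR2B and the brighter NGFR probe set are lowest on hCG day 10, both F2RL1 probe sets stay low from hCG day 12 on, and the dimmer NGFR probe set is under 16 on every array.

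F2RL1 took another course: on hCG day 10 its arrays overlapped with the untreated ones (1 of 4 within their range in the brighter probe set and 2 of 4 in the dimmer), and from day 12 on all lay below them. The brighter probe set, MmugDNA.24286.1.S1_at, had signals of 1191, 830, 1058 and 763 on hCG day 10, against 1748, 1075, 1712 and 1146 in untreated tissue. The highest hCG day 10 array lay above the 2 dimmest untreated arrays, so the groups overlapped.

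On hCG day 12 the signals of the brighter F2RL1 probe set were 314, 654, 272 and 269, and replicate 2 stood apart from the other 3. They were 306, 348, 269 and 249 on hCG day 15 and 232, 288, 272 and 322 on hCG day 18. All 12 arrays of these groups were below the dimmest untreated array, and the signals of days 15 and 18 lay in the same range.

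The brighter F2RL1 probe set averaged 1420.5 ± 359 in untreated tissue and 960 ± 199, 377 ± 186, 293 ± 43.9 and 278 ± 37.3 on hCG days 10, 12, 15 and 18. Its differences from untreated tissue were -0.54 ± 0.24, -1.93 ± 0.24, -2.19 ± 0.24 and -2.26 ± 0.24 on the log2 scale, and the last 3 correspond to signals 3.82-fold, 4.57-fold and 4.79-fold lower. Relative to the mean, the SD was 15.0% and 13.4% on hCG days 15 and 18, against 25.3% in untreated tissue.

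The dimmer F2RL1 probe set, MmuSTS.4741.1.S1_at, gave the same order of groups up to hCG day 12. Its signals were 312, 154, 280 and 124 on hCG day 10, against 429, 279, 294 and 194 in untreated tissue. They were 107, 118, 66.3 and 54.1 on day 12, 48.6, 62.5, 65.5 and 75.6 on day 15 and 71.2, 78.3, 70.3 and 62.9 on day 18. As with the brighter probe set, the arrays of days 12, 15 and 18 all fell below the untreated ones and those of day 10 did not. Its log2 differences from untreated tissue were -0.47, -1.62, -1.96 and -1.81 (SE 0.27 each). Over the 20 arrays the F2RL1 probe sets correlated at r = 0.95, and at r = 0.64 once group means were removed, which is a description of points that share arrays.

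The largest step of F2RL1 between hCG days was that of day 12 against day 10. The brighter probe set differed on hCG day 12 from hCG day 10 by -1.39 ± 0.24 (2.62-fold lower), with all day 12 arrays under all day 10 arrays (2.68% of all probe sets). The dimmer probe set differed by -1.15 ± 0.27.

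On hCG day 18 against hCG day 10, F2RL1 was lower in both probe sets, with no overlap (5.93% of all probe sets), by -1.72 ± 0.24 (3.29-fold lower) and -1.34 ± 0.27. Later steps of the brighter probe set were -0.26 for day 15 against day 12 (interval -0.76 to 0.24) and -0.07 for day 18 against day 15. The interval of the earlier step covers a further decrease as well as none.

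In its brighter probe set NGFR was lowest on hCG day 10, like HTR2B. Its mean on hCG day 18 was close to that of untreated tissue. The brighter probe set, MmugDNA.11249.1.S1_at, had signals of 549, 296, 246 and 253 on hCG day 10, against 1061, 1278, 1488 and 607 in untreated tissue. These groups did not overlap, although hCG day 10 replicate 1 came close to untreated replicate 4.

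The NGFR signals were 637.5, 583, 225 and 358 on hCG day 12, 651, 673, 863 and 458.5 on day 15 and 1696, 677, 707 and 1245 on day 18. From day 12 on the hCG arrays overlapped with the untreated ones, with 3, 1 and 0 arrays under the lowest untreated array. On day 18 replicates 1 and 4 stood well above the other 2.

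The brighter NGFR probe set averaged 1108 ± 377 in untreated tissue and 336 ± 144, 451 ± 193, 661 ± 165 and 1081 ± 486 on hCG days 10, 12, 15 and 18. Against untreated tissue it differed by -1.68 ± 0.36 on hCG day 10 (3.20-fold lower) and -1.30 ± 0.36 on day 12 (2.47-fold lower). On days 15 and 18 the differences were -0.69 ± 0.36 and -0.07 ± 0.36, the last with an interval of -0.83 to 0.69 that covers changes of either sign.

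NGFR on hCG day 18 differed from NGFR on hCG day 10 by 1.61 ± 0.36 (3.06-fold higher). All day 18 arrays lay above all day 10 arrays, as they did for 5.60% of all probe sets. Without hCG day 18 replicate 1, its brightest array, the difference was 1.36. The single steps were smaller: 0.38 for day 12 against day 10, 0.61 for day 15 against day 12 and 0.62 for day 18 against day 15. Their 95% intervals were -0.38 to 1.13, -0.15 to 1.37 and -0.13 to 1.38, so each covers changes of either sign.

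The dimmer NGFR probe set did not show this course. Its signal was between 1.96 and 15.3 on all 20 arrays, under the 16 units that were added before taking logs, and its log2 differences from untreated tissue were -0.04, 0.24, 0.01 and -0.08 (SE 0.18). It correlated with the brighter NGFR probe set at r = -0.08. The values of NGFR thus rest on 1 of its 2 probe sets.

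Against untreated tissue, arrays lay wholly below the untreated ones for 2 of the 5 probe sets on hCG day 10 (HTR2B and the brighter NGFR), for 3 on day 12 (HTR2B and both of F2RL1), and for both F2RL1 probe sets on days 15 and 18. Over all probe sets this held for 4.54%, 3.56%, 4.56% and 6.37% on hCG days 10, 12, 15 and 18. The genes were chosen on these contrasts, so nothing is read from the counts. For day 15 against day 12 and day 18 against day 15, limma called 0 of all 52707 probe sets, with 2705 and 3688 at an unadjusted p under 0.05.

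**Figure D2:**
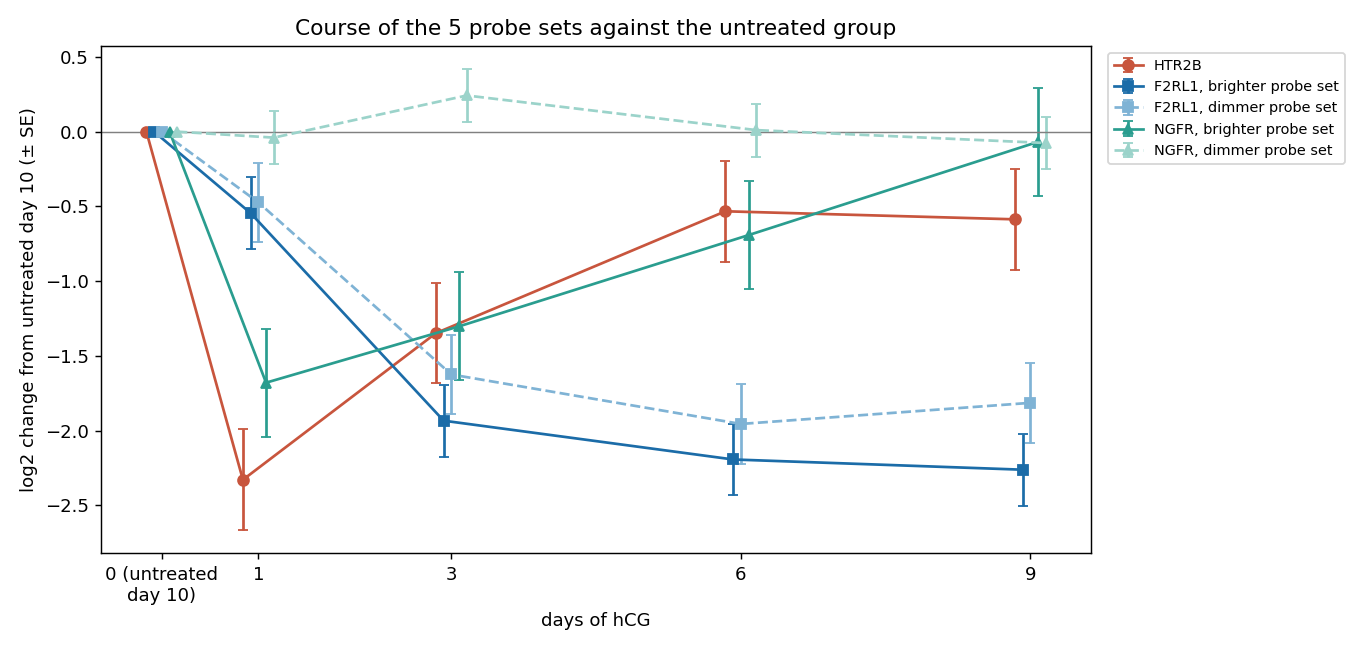
Log2 change from untreated tissue (y axis, log2(signal + 16) scale) after 1, 3, 6 or 9 days of hCG (x axis, with the untreated group at 0) for the 5 probe sets, with bars of 1 SE from the fit of all 20 arrays. Among the brighter probe sets HTR2B starts at -2.33 and ends at -0.59, F2RL1 starts at -0.54 and ends at -2.26, and NGFR starts at -1.68 and ends at -0.07.

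The array medians under hCG lay -0.12, -0.14, -0.11 and -0.05 log2 units from the untreated ones on days 10, 12, 15 and 18. Relative to that shift, HTR2B differed from untreated tissue by -2.21, -1.20, -0.42 and -0.54, F2RL1 by -0.43, -1.79, -2.08 and -2.21, and NGFR by -1.56, -1.16, -0.58 and -0.02. No direction was turned by it.

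The courses were set against each other within each array, by the difference between the log2 values of a pair of genes, a measure added after the values were seen and given as a description. Between hCG day 10 and hCG day 18, HTR2B moved up relative to F2RL1 by 3.46 log2 units, and all 4 day 18 arrays lay above all 4 day 10 arrays. F2RL1 moved relative to NGFR by -3.33 units, again with no overlap. HTR2B relative to NGFR moved by 0.13 units, and the arrays of the 2 days overlapped. Each value combines the changes of the 2 genes between these days, which are given above. No share over other gene pairs is given, so nothing is read from the separation.

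**Figure D3:**
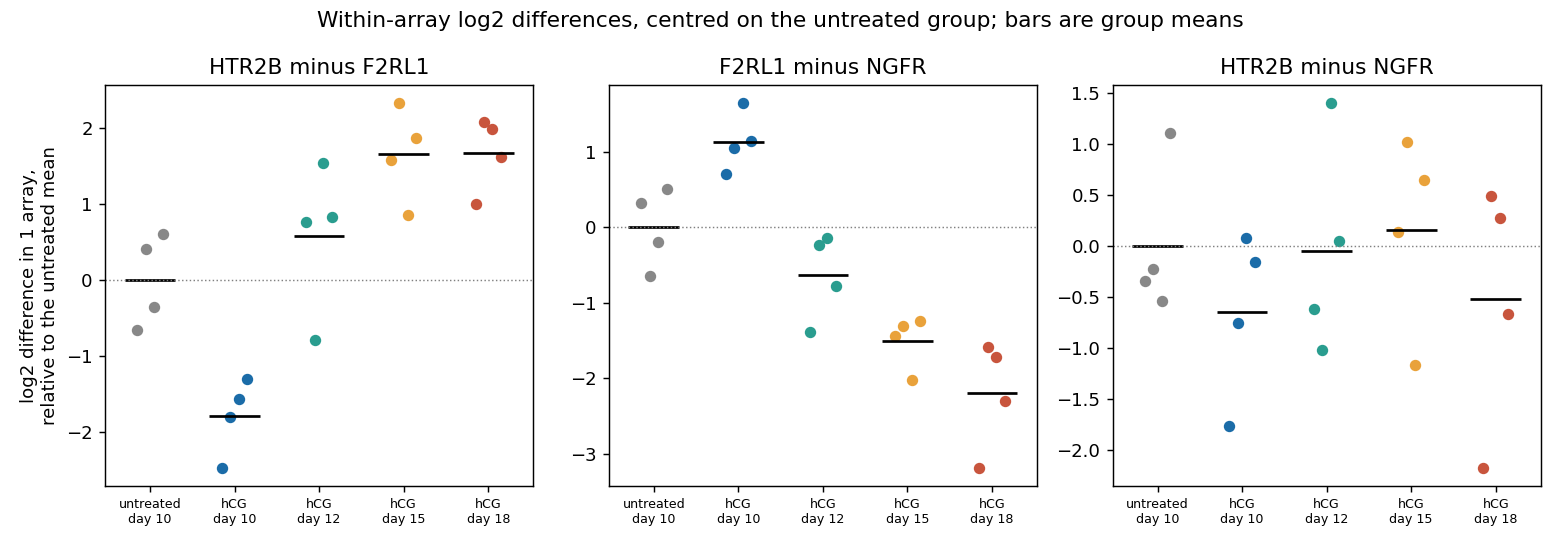
Difference between the log2 values of 2 genes within an array (y axis, centred on the mean of the untreated group), with a point per array and a bar at the mean of each group. HTR2B minus F2RL1 separates hCG day 18 from hCG day 10 in the upward direction and F2RL1 minus NGFR in the downward direction, while HTR2B minus NGFR overlaps.

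Within groups, HTR2B and NGFR did not go up and down together. Over the 20 arrays their log2 values correlated at r = 0.47, but at r = -0.64 once group means were removed. HTR2B and F2RL1 correlated at -0.08 over the 20 arrays, and F2RL1 and NGFR at 0.05, or 0.40 with group means removed. These are descriptions over points that share the 5 groups.

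The genes whose log2 signal over the 20 arrays was most like that of each receptor were named from 9725 genes with a brightest probe set in the upper 50% by mean signal. For HTR2B they were ADM, the vasodilator peptide adrenomedullin (r = 0.83), SLFN12 (0.81), TOMM20, a mitochondrial import receptor (0.79), FZD6, a Wnt receptor (0.79), and SPRY2, an inhibitor of growth factor receptor signalling (0.77). For F2RL1 they were RAB32, a small GTPase (0.91), SYAP1 (0.90), TEX30 (0.89), NANOS1, an RNA-binding protein (0.89), and NREP (0.89). For NGFR they were STK4, a kinase of the Hippo pathway (0.84), ADAP2 (0.84), CDC14A, a phosphatase (0.83), LACC1 (0.83) and CEP170, a centrosomal protein (0.83).

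With group means removed, the 5 genes most like NGFR still correlated with it at 0.70 to 0.83, those most like F2RL1 at 0.24 to 0.46, and those most like HTR2B at 0.07 to 0.63. The likeness to NGFR was thus largely present among arrays of the same group, and the likeness of SPRY2 to HTR2B (0.07) was not.

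The other genes of each system were taken from lists chosen by function, with the brightest probe set per gene, and tested against untreated tissue with limma (Benjamini-Hochberg adjusted p under 0.05 over all probe sets). In the serotonin list, 15 of 21 genes were measured and 0 passed on any of the 4 days (0, 1, 1 and 0 at an unadjusted p under 0.05), where limma called 1.54%, 0.453%, 1.97% and 6.09% of all genes on hCG days 10, 12, 15 and 18. The median log2 change of the list was 0.04, -0.07, 0.00 and 0.03, against -0.01, -0.01, -0.03 and -0.03 for all genes. Of its 15 genes, 6 were under 16 units on every array.

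TPH1, the hydroxylase that starts serotonin synthesis outside the brain, was among those 6, with group means of 2.89 to 10.2 units. MAOA, which breaks serotonin down, had group means of 549 to 612. HTR2A, another receptor of the HTR2 family, had group means of 6.30 to 15.96, and HTR7, a serotonin receptor that raises cyclic AMP, of 104 to 220. The serotonin transporter gene SLC6A4 was not analysed here.

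In the Gq signalling list, which holds the G proteins, phospholipases and regulators through which HTR2B acts, 18 of 26 genes were measured and 0 passed with limma on any day (4, 2, 4 and 4 at an unadjusted p under 0.05). The list medians were 0.03, 0.07, 0.00 and 0.14. The genes of the alpha subunits GNAQ and GNA11 were not analysed here.

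In the list of protease-activated receptors with their proteases and inhibitors, 18 of 21 genes were measured. With limma 0 passed on hCG days 10, 12 and 15 (3, 1 and 4 at an unadjusted p under 0.05), and on day 18 1 gene rose and 2 fell, against 2.78% of all genes higher and 3.31% lower. The list medians were -0.06, -0.14, -0.23 and -0.01.

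The genes that fell on hCG day 18 were F2R, the thrombin receptor PAR1, and F2RL2, the receptor PAR3, which stand next to F2RL1 in the order of genes on the RefSeq assembly T2T-MMU8v2.0 (F2RL2, F2R, F2RL1). F2R averaged 1045 ± 383 on hCG day 18 and 2114 ± 600 in untreated tissue, and its arrays did not overlap (508.5 to 1381, against 1488 to 2932). Its log2 change was -1.06 ± 0.29 (adjusted p = 0.046, limma). The other F2R probe set was at 0.79 ± 0.35 (adjusted p = 0.261), the opposite direction, and the call ended in 15 of the 20 fits that leave out 1 array (adjusted p 0.031 to 0.159).

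F2RL2 averaged 31.7 ± 17.5 on hCG day 18 and 141 ± 71.9 in untreated tissue, with a log2 change of -1.65 ± 0.39 (adjusted p = 0.0184, limma). Its other probe set was lower as well, by -1.13 ± 0.31 (adjusted p = 0.0498). The call of F2RL2 ended without untreated replicate 1 or 2 (adjusted p = 0.0697 and 0.0627), without hCG day 18 replicate 3 or 4 (0.0561 and 0.0664) and without the 3 arrays that stand apart (0.0634).

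SPINT2, an inhibitor of serine proteases of the cell surface, was the gene that rose. It averaged 2774 ± 305 on hCG day 18 and 1667 ± 233 in untreated tissue (log2 change 0.73 ± 0.13, adjusted p = 0.00315, limma), and its other probe set rose by 0.94 (adjusted p = 0.00294). The call held in each of the 20 fits that leave out 1 array. ST14, the membrane protease matriptase that can cut PAR2, had group means of 365 to 596 units. F3, the tissue factor that starts clotting, had group means from 93.0 on hCG day 18 to 316 in untreated tissue. Its log2 change on day 18 was -1.53 ± 0.44 and did not pass (adjusted p = 0.0608, limma). The gene of the fourth protease-activated receptor, F2RL3, was not analysed here.

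**Figure D4:**
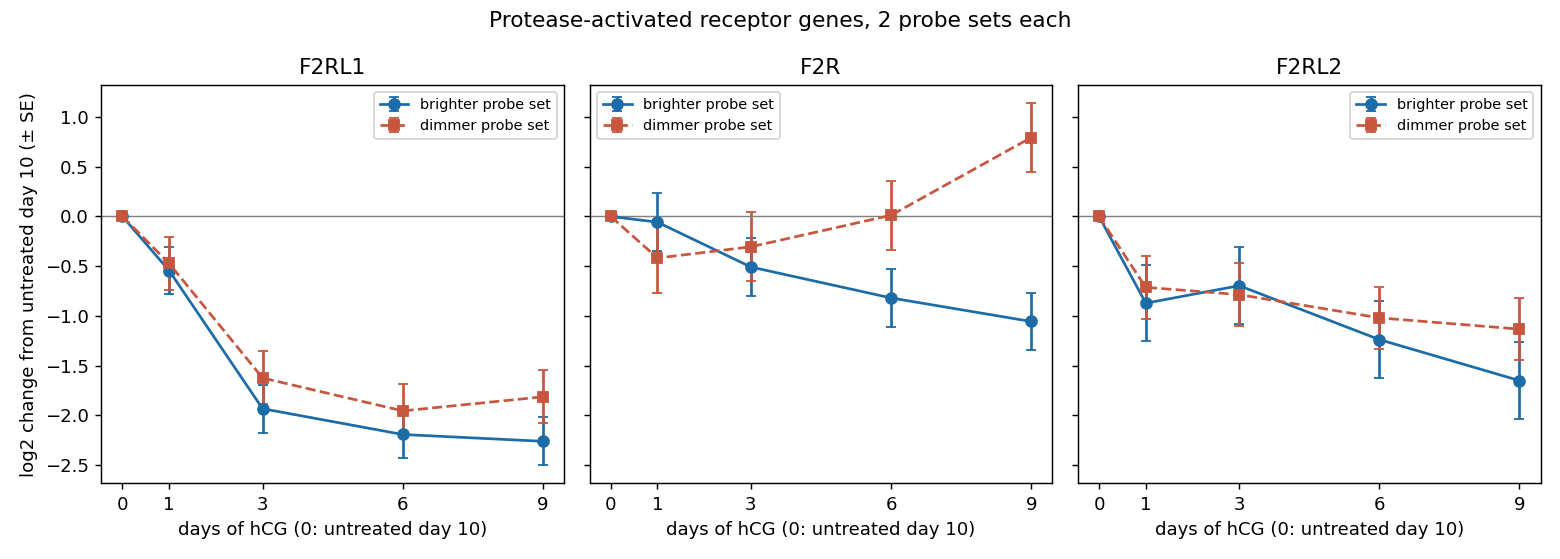
Log2 change from untreated tissue (y axis, log2(signal + 16) scale, bars of 1 SE) by days of hCG (x axis, with the untreated group at 0) for the brighter and the dimmer probe set of F2RL1, F2R and F2RL2. The probe sets of F2RL1 and of F2RL2 run together, and those of F2R end apart, at -1.06 and 0.79.

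In the neurotrophin list, 15 of 26 genes were measured. On hCG day 10 1 gene rose (1.12% of all genes did) and 0 fell. On day 12 limma called 0 (2 at an unadjusted p under 0.05). A different gene fell on day 15 and again on day 18 (0.998% and 3.31% of all genes did). The list medians were 0.01, -0.02, -0.08 and 0.08.

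RTN4R, the Nogo receptor, which binds NGFR in neurons, rose on hCG day 10. Its signals averaged 7775 ± 463 on hCG day 10 and 4742 ± 236 in untreated tissue (log2 change 0.71 ± 0.13, adjusted p = 0.00812, limma). A second bright probe set rose by 1.04 (adjusted p = 0.0042), and the other 2 were at 0.02 and 0.06. The gene was thus higher on the day on which NGFR was lowest. On hCG day 12, with NGFR still at -1.30, the 2 bright RTN4R probe sets were at -0.02 and -0.23.

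SORCS1, a receptor of the sortilin family, fell on hCG days 15 and 18. It averaged 22.96 ± 10.4 on hCG day 15, 21.3 ± 6.40 on hCG day 18 and 63.1 ± 14.4 in untreated tissue, with log2 changes of -1.05 ± 0.24 (adjusted p = 0.0343, limma) and -1.08 ± 0.24 (adjusted p = 0.0135). Its other probe set was at -1.32 and -1.57 (adjusted p = 0.00682 and 6.0e-04). Without the 3 arrays that stand apart both calls of the first probe set ended (adjusted p = 0.167 and 0.0553). The day 15 call also ended with a pseudocount of 1 (0.0698), quantile normalisation (0.0602), median-centring (0.0645) and the 2 groups alone (0.0961), and in 5 of the 20 fits that leave out 1 array, without untreated replicate 2, 3 or 4 or hCG day 15 replicate 2 or 4 (adjusted p 0.0818 to 0.142). The day 18 call ended in 1 of them, without hCG day 18 replicate 1 (0.0506).

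The neurotrophin genes themselves were dim. BDNF had group means of 8.94 to 18.0 units and NTF3 of 19.2 to 38.5, and NTRK3, the Trk receptor for neurotrophin 3, of 19.9 to 30.8.

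NGFR is a known marker of Schwann cells, so nerve markers were read beside it. Of 6 markers 4 were measured (ERBB3, PRPH, S100B and SOX10), and 0 passed with limma on any day (1, 0, 0 and 0 at an unadjusted p under 0.05). Their summed signal was 66.1 to 84.6, 53.9 to 139, 71.9 to 131 and 77.0 to 122 on hCG days 10, 12, 15 and 18, against 74.1 to 147 in untreated tissue. None of the 4 was at 0 on an array or exceeded 57.6 units. S100B on hCG day 10 was the marker with an unadjusted p under 0.05. It averaged 7.89 units, against 19.9 in untreated tissue (log2 change -0.56, adjusted p = 0.372, limma). On that day ERBB3 was at -0.33, SOX10 at -0.09 and PRPH at 0.22. The part of the 4 nerve markers in the NGFR result was not tested.

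Of the markers of mast cells and of platelets, both of which can hold serotonin, 4 each were measured and 0 passed with limma on any day (for platelets 2 on day 15 at an unadjusted p under 0.05, otherwise 0). Of the endothelial markers, 6 of 6 were measured and 0 passed with limma on any day (1, 0, 0 and 0 at an unadjusted p under 0.05). The luteal marker HSD3B2 fell by log2 changes of -0.97 on hCG day 15 (adjusted p = 0.0243) and -1.83 on day 18 (adjusted p = 4.4e-05, limma). On hCG day 12 HSD3B2 was at -0.37 ± 0.21 and did not pass (adjusted p = 0.56, limma). STAR and INHA were the other luteal markers measured. On hCG days 15 and 18 STAR was at 0.07 and 0.23 and INHA at 0.35 and 0.47, and none of these values passed. The macrophage marker CSF1R rose by 1.06 on hCG day 18 (adjusted p = 0.0122), when the summed signal of the macrophage markers was 1991 to 3646, against 1036 to 2302 in untreated tissue. The summed signal of 4 measured fibroblast markers was 14592 to 25695 on hCG day 12, against 11429 to 16066 in untreated tissue, so the ranges overlapped. Of these markers 0 passed with limma on any day (0, 2, 0 and 0 at an unadjusted p under 0.05). On day 12 COL1A1 was at 1.03, COL1A2 at 0.51, LUM at 0.46 and DCN at 0.10. Of 6 smooth muscle and pericyte markers 2 were measured (MYH11 and CSPG4). Their summed signal was 1035 to 1619 on hCG day 12, against 732 to 999 in untreated tissue. Neither passed with limma on any day (1 of 2 at an unadjusted p under 0.05 on each day). On day 12 MYH11 was at 0.84 and CSPG4 at 0.004, so the higher sum lay in MYH11. On day 15 CSPG4 was at -0.78 and MYH11 at 0.29. The part of these cell types in the receptor results was not tested.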

How the data were processed

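The authors deposited an intensity for each probe set on each array, on a linear scale. It was computed with GCOS, per the submitters' processing notes, with no version given. Every array has a 2% trimmed mean of 200.01 to 200.02. Of 52865 probe sets, 158 array controls were left out; 24956 of the rest carry 1 symbol in the platform annotation, 361 several and 27390 none. Precision is limited by the number of arrays.

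Signals were analysed as log2(signal + 16), with no filter. One mean per group was fitted to the 20 arrays with limma (version 3.58.1, eBayes) in R (version 4.3.3). The p-values of each contrast were adjusted (Benjamini-Hochberg) over 52707 probe sets, with a threshold of 0.05. A gene is read through its probe set of highest mean log2 signal. Differences of the 3 receptors between hCG days had been planned as tests and are given as a description, because the choice of the genes used the same arrays. Group errors are SD and those of changes SE.

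The genes, lists and tests were chosen with earlier results of these data known. Named were the 3 genes with all their probe sets, list genes that passed, a fixed set of others, and 5 like genes per receptor. Alternatives were other pseudocounts (1, 64), a replicate block, limma's array weights, only the brighter 50% of probe sets, quantile normalisation, median-centring, 2 groups alone, averaging a gene's probe sets, and leaving out arrays. The fit was tested on simulated data. The figures come from matplotlib 3.10.9 under Python 3.11.15.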

Additional observations from a re-analysis of the deposited data

Results flagged for a closer look

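In 25 groups of 4 arrays of the 5 probe sets, 4 had an array far from the other 3, by Dixon's test of the gap over the range. Chance gives this in about 1 group in 20. The brighter F2RL1 probe set had a signal of 654 in hCG day 12 replicate 2, against 269 to 314 in the other 3. The dimmer NGFR probe set, which is under 16 on every array, had 15.3 in hCG day 10 replicate 3 (others 1.96 to 3.71), 3.95 in hCG day 12 replicate 3 (others 11.5 to 12.9) and 10.8 in hCG day 15 replicate 2 (others 3.94 to 4.92).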

How the results depend on the processing

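For HTR2B, F2RL1 and NGFR, 334 recomputed differences from untreated tissue moved by less than the spread between replicates and 2 by more. Many of the 334 could not move, since a replicate block or leaving out an array of neither group compared returns the same difference. For the same genes, 8 recomputed differences between hCG days changed sign. With the mean over its probe sets, NGFR was at -0.86 on hCG day 10 and -0.53 on day 12, since the dim probe set enters. A fit of these 2 groups alone cannot change the -1.39 of F2RL1 on day 12 against day 10, only its spread. NGFR on hCG day 18 against day 10 ran from 1.36 to 1.86 when 1 array was left out. Small steps changed sign: F2RL1 day 18 against day 15 was 0.036 with the mean over probe sets and 0.015 without the 3 arrays that stand apart (an alternative chosen after seeing the data), and -0.14 to 0.015 with 1 array left out. HTR2B for the same step was 0.25 without these 3 arrays, and -0.36 to 0.25 with 1 array left out. F2RL1 day 15 against day 12 was -0.38 to 0.030, and HTR2B relative to NGFR -0.16 with a pseudocount of 64 and -0.24 to 0.68 with 1 array left out. The cause was not tested. No label states whether replicate numbers pair the arrays. Same-numbered arrays correlated at -0.39 to 0.47 (median 0.04), with 16 of 40 pairs over 0.1. With a replicate block, the F2R call on hCG day 18 was lost (log2 change -1.06, adjusted p = 0.0566). Of the recomputed calls of list genes, 140 held and 38 (in F2R, F2RL2 and SORCS1) were lost. The number of probe sets called ran from 172 to 664 (503 as reported) on hCG day 10, 7 to 290 (152) on day 12, 230 to 820 (681) on day 15, and 56 to 402 (273) between days 10 and 12.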
